A study of Mus musculus with 32 samples.

Results

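The voltage-gated sodium and calcium channel genes were examined across the 8 groups of a mouse forebrain RNA-seq series on the histone acetyltransferase gene Kat6b. They were taken by gene symbol: the sodium channel α genes (Scn followed by a number and the letter a), the sodium channel β genes (Scn, a number and the letter b), the calcium channel α1 genes (Cacna1 and a letter), the α2δ genes (Cacna2d1 to Cacna2d4), the β genes (Cacnb1 to Cacnb4) and the γ genes (Cacng1 to Cacng8). This gave 40 genes of the 26331 named genes in the count files: 10 sodium α, 4 sodium β, 10 calcium α1, 4 α2δ, 4 β and 8 γ genes. Each of the 32 libraries came from 1 embryo, taken from the dorsal telencephalon at the embryonic age E12.5 (days of gestation) or from the cortex 3 days later, at E15.5. On the C57BL/6 background, KO embryos (labelled Kat6b-/-, knockout) and wild type (WT) embryos gave 3 libraries each at the younger age and 5 each at the older. On a mixed FVBxBALB/c background, embryos carrying the transgene Tg(Kat6b), which raises Kat6b, and their WT controls gave 4 libraries per genotype and age. The transgene was held on the mixed background since carriers did not survive on an inbred one, per the design text. Sources used here name neither the part of Kat6b removed in the KO nor the promoter of the transgene.

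Voltage-gated sodium and calcium channels open when a neuron is depolarised. The α or α1 subunit forms the pore, and sodium entry through it drives the rising phase of the action potential. Calcium entry triggers transmitter release and signals to the nucleus, and low-threshold (T-type) calcium channels act near the resting potential. The β and α2δ subunits bring pores to the membrane and set their gating. Most γ genes of the nervous system encode TARPs, proteins that carry AMPA-type glutamate receptors rather than calcium channels. In the developing cortex, progenitors next to the ventricle give rise to neurons that acquire these channels as they mature.

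Total counts over named genes ran from 10383066 to 49508669 per library. Kat6b itself stood at 170 ± 20.7 CPM (SD, n = 3; CPM are counts scaled to library size) in C57BL/6 WT and 154 ± 34.8 in KO at E12.5, and at 171 ± 17.7 and 174 ± 15.1 (n = 5) at E15.5. The libraries labelled KO thus did not differ from WT in their count of Kat6b reads over the whole gene, and every KO direction given here rests on the labels. In FVBxBALB/c, Kat6b rose from 177 ± 20.2 in WT to 546 ± 54.6 in Tg at E12.5 and from 183 ± 31.7 to 659 ± 77.3 at E15.5 (n = 4 each), with no overlap between genotypes. C57BL/6 libraries were sequencing batch 2 and FVBxBALB/c libraries batch 1 by the labels, so background and batch cannot be told apart. Among the KO libraries at E15.5, replicates 3 and 4 lay closer to each other than any other pair of libraries of a group, with a median per-gene chi-square of 1.82 times that of sampling noise against 2.89 for the next pair. Their labels name different litters, and counts and calls that change without both are given. KO replicate 5 at E15.5 is labelled dorsal telencephalon in place of cortex, and both C57BL/6 replicates 5 of that age carry a column name of E12.5. Leaving both out ended the age call of Cacng1 in WT (adjusted p = 0.0581 by edgeR) and no other call among the channel genes. Markers of cortical tissue were present in every library: the 14 postmitotic neuron genes summed to 3363 CPM or more and the 12 apical progenitor genes to 2265 CPM or more. In such bulk tissue, fewer cells of a type and less RNA per cell cannot be told apart.

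Of the 40 genes, 35 passed the filter on low counts in C57BL/6 and 33 in FVBxBALB/c, where Cacna1s and Scn10a also failed. Scn4a, the sodium channel of skeletal muscle, Scn7a, Cacna1f of the retina, Cacna2d4 and Cacng6 passed in neither, and their group means stayed at or below 0.206 RPKM (reads scaled to library size and gene length, the scale on which genes are compared here). No group mean of those 5 genes is read further. A scarce gene could pass the filter solely through the group where it was high. This limits what the changes of Cacna1s, Scn10a, Scn4b and Cacng1 show. At the top stood genes of the γ and calcium channel β classes. In C57BL/6 WT at E12.5, Cacng4 was at 74.0 ± 3.23 RPKM, Cacng7 at 70.1 ± 13.4 and Cacnb3 at 46.1 ± 16.8 (SD, n = 3), with overlapping ranges. At E15.5 the order of these 3 genes was the same, at 103 ± 6.96, 98.3 ± 5.24 and 81.0 ± 3.65 RPKM (n = 5). Cacnb3 then lay below the range of Cacng7. Along the whole order of 40 genes, neighbours overlapped in range in 35 of 39 pairs at E12.5 and 34 of 39 at E15.5, so most single ranks are not separable.

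Among sodium pores, Scn3a, the α subunit typical of the embryonic brain, had the highest level per length in each of the 8 groups, at 8.06 ± 1.68 RPKM in C57BL/6 WT at E12.5 and 11.1 ± 1.73 at E15.5. Scn8a, later found at nodes of Ranvier, followed at 3.09 ± 0.458 and 4.92 ± 0.532 RPKM. Among calcium pores, Cacna1g and Cacna1h, both of the T type, led at E12.5 with 9.69 ± 0.956 and 7.63 ± 2.46 RPKM. At E15.5 Cacna1h led alone with 17.9 ± 1.76 RPKM, and the N-type gene Cacna1b (9.54 ± 0.804) overlapped Cacna1g (8.40 ± 1.36).

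From E12.5 to E15.5, most channel genes rose. In C57BL/6 WT, 28 of 35 tested genes rose and 3 fell (edgeR quasi-likelihood F test, Benjamini-Hochberg adjusted p below 0.05), beside 28.6% of all 16118 genes tested that rose and 28.2% that fell (56.8% either way). In FVBxBALB/c WT, 21 of 33 rose and 5 fell, beside 25.1% and 25.1% of 15556 genes (50.1% either way). The libraries of the 2 ages did not overlap at all for 29 of 35 channel genes in C57BL/6 WT, against 51.8% of all genes tested, and for 20 of 33 in FVBxBALB/c WT, against 43.1%. The median log2 fold change of the tested channel genes was 1.16 in C57BL/6 and 0.78 in FVBxBALB/c, against -0.02 and -0.03 over all genes tested. Age goes with the dissected tissue in these samples, so both change together.

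**Figure D1:**
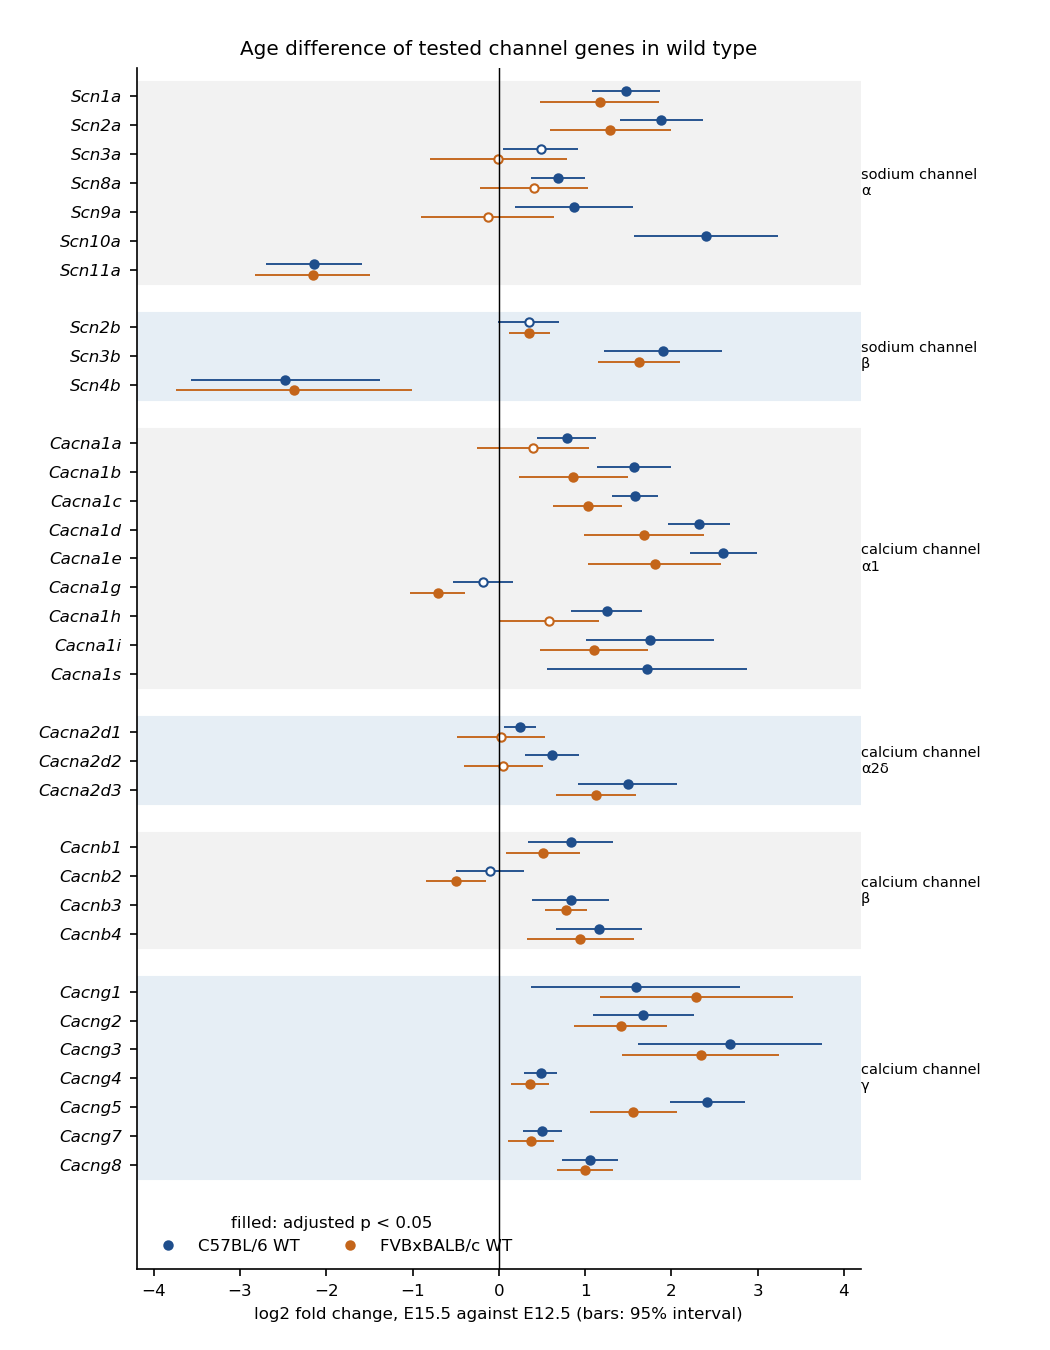
Log2 fold change from E12.5 to E15.5 with its 95% interval for tested channel genes in wild type of C57BL/6 (blue) and FVBxBALB/c (orange), in blocks by subunit class. Points to the right are higher at E15.5, filled points have an adjusted p below 0.05, and Scn11a and Scn4b lie farthest to the left in both backgrounds.

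The sodium α genes split. Scn2a, which carries action potentials in the axons of young excitatory neurons, rose from 14.1 ± 3.31 to 51.4 ± 5.93 CPM in C57BL/6 WT, a change of 1.88 on the log2 scale (SE 0.23, adjusted p = 5.06e-06 by edgeR). Its change in FVBxBALB/c WT was 1.29 (SE 0.33, adjusted p = 0.0039). Scn1a, the main α subunit of many inhibitory neurons, rose by 1.48 (adjusted p = 5.53e-06) and 1.17 (0.00675) on the log2 scale. Scn8a at 0.69 (adjusted p = 0.000758) and Scn9a, best known from sensory neurons, at 0.87 (0.0306) were called in C57BL/6 WT. They changed in FVBxBALB/c WT by 0.40 (adjusted p = 0.272) and -0.13 (0.785), and neither difference between the backgrounds passed its own test (adjusted p = 0.917 for Scn8a and 0.757 for Scn9a). Scn3a missed the threshold in both, at 0.49 (adjusted p = 0.0548) and -0.01 (0.988).

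Scn11a, an α subunit of pain-sensing neurons, was low and fell further. In C57BL/6 WT it read 4.06, 3.16 and 3.00 CPM at E12.5 against 0.268, 0.850, 0.738, 0.895 and 0.887 at E15.5. FVBxBALB/c WT gave 3.03, 3.95, 4.01 and 2.57 against 0.783, 1.2, 0.346 and 0.595. The ages did not overlap in either background, and the log2 fold changes were -2.14 (SE 0.26, adjusted p = 3.82e-06) and -2.16 (SE 0.31, adjusted p = 2.79e-05). Scn10a, another sensory α gene, moved the other way: it rose by 2.41 (SE 0.40, adjusted p = 6.81e-05) in C57BL/6 WT, from 0.158 to 0.244 CPM at E12.5 up to 0.885 to 1.33 at E15.5. In C57BL/6 it passed the filter on low counts through its E15.5 libraries alone, so its rise is not independent of that filter.

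**Figure D2:**
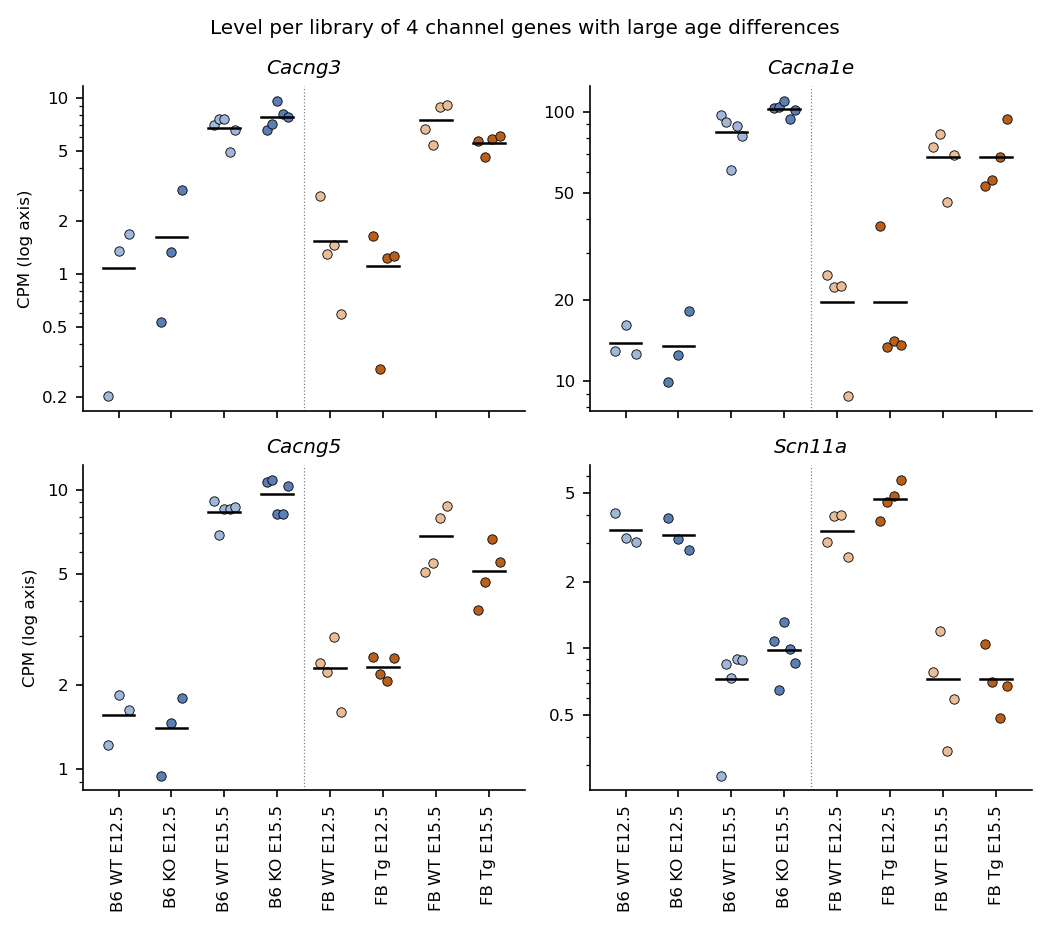
CPM per library on a log axis for 3 channel genes that rose and 1 that fell between the ages, each with a mean of at least 1 CPM. Each point is 1 library, the bar is the group mean, and B6 and FB stand for C57BL/6 and FVBxBALB/c; the E12.5 and E15.5 points separate in every panel.

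Scn10a and Scn11a lie next to each other on chromosome 9 (mm10), at 119608456 to 119719322 and 119753763 to 119825456, with 34440 bases between them. Scn2b and Scn4b are neighbours too, at 45117876 to 45130070 and 45138624 to 45154155 on the same chromosome, 8553 bases apart, and they had different age changes too, given below. The promoters of the pairs Scn10a and Scn11a and Scn2b and Scn4b are shown because members of each pair lie side by side and had different age changes. Each line is the 250 bases before a start site from RefSeq on GRCm38.p6 (the assembly of mm10), 5′ to 3′ on the gene's strand, with each CG dinucleotide in capitals. The Scn10a line lies within the Scn10a span given above, which ends at 119719322, so it precedes a start site inside that span. Each of the other lines borders its gene span.
Scn10a, chr9:119719033-119719282, minus strand: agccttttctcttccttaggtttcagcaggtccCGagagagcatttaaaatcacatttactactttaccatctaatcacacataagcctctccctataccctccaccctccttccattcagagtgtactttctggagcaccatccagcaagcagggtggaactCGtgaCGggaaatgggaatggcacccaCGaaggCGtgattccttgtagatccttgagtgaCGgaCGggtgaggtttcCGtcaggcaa
Scn11a, chr9:119825457-119825706, minus strand: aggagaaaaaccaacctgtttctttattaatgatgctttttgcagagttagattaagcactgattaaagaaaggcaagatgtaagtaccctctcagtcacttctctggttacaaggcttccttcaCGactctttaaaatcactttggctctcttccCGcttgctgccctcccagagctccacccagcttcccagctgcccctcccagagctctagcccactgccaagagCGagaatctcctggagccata
Scn2b, chr9:45117626-45117875, plus strand: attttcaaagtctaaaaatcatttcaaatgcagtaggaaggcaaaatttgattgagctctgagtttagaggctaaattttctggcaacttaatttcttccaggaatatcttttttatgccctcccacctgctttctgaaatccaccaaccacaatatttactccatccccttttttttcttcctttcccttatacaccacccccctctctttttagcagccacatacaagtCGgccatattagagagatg
Scn4b, chr9:45138374-45138623, plus strand: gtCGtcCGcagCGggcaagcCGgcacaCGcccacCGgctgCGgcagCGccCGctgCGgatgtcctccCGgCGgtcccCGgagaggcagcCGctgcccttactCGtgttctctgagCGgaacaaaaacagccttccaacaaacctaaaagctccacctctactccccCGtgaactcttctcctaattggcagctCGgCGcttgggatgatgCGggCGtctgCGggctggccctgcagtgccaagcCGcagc
Scn4b held 23 CG dinucleotides, Scn10a 8, Scn11a 3 and Scn2b 1, where the median over 32851 promoters of the same length was 6 and 92.1% held at least 1. A CG reads the same on both strands. The table matched 30 of the 40 channel genes, with 41 promoters and a median of 8 CG dinucleotides. These counts describe the sequences only.

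Among the sodium β genes, Scn3b rose and Scn4b fell in both backgrounds, and Scn2b moved little. Scn3b, the most abundant β gene per length in all groups, rose by 1.90 (SE 0.32, adjusted p = 0.000146) and 1.63 (SE 0.23, adjusted p = 1.97e-05). Scn4b, which supplies resurgent current in some fast-firing neurons, stood at 0.948 to 2.20 CPM at E12.5 and 0.148 to 0.624 at E15.5 in C57BL/6 WT. It fell by 2.47 on the log2 scale (SE 0.52, adjusted p = 0.000633), and by 2.38 in FVBxBALB/c WT (SE 0.65, adjusted p = 0.00578). Scn4b may have passed the filter on low counts through its E12.5 libraries alone, so this fall may not be independent of that filter. Its neighbour Scn2b changed by 0.35 in each background, which passed in FVBxBALB/c (SE 0.11, adjusted p = 0.0158) and not in C57BL/6 (SE 0.17, adjusted p = 0.085).

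Of the calcium α1 genes, 8 of 9 tested rose in C57BL/6 WT and 5 of 8 in FVBxBALB/c WT. Cacna1e, the R-type pore, read 13, 16.1 and 12.6 CPM in C57BL/6 WT at E12.5, against 97, 91.7, 60.8, 88.9 and 81.1 at E15.5. FVBxBALB/c WT gave 24.8, 22.3, 22.6 and 8.79 CPM, then 74.1, 83.1, 46.2 and 69.1. The lowest E15.5 library stood above the highest E12.5 library in both. It rose by 2.60 on the log2 scale (SE 0.18, adjusted p = 2.07e-08) and 1.81 (SE 0.36, adjusted p = 0.000603). The L-type genes Cacna1d and Cacna1c, which couple activity to gene expression, rose by 2.33 (adjusted p = 2.2e-08) and 1.58 (4.76e-08) in C57BL/6 WT and by 1.69 (0.000455) and 1.03 (0.000255) in FVBxBALB/c WT.

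The release-related genes differed in degree. Cacna1b, the N-type pore, rose by 1.57 (adjusted p = 8.29e-06) in C57BL/6 WT and 0.86 (0.0241) in FVBxBALB/c WT. Cacna1a, the P/Q-type pore, rose by 0.79 (adjusted p = 0.000536) in C57BL/6 WT, with 0.39 (0.303) in FVBxBALB/c WT. The T-type genes parted. Cacna1i rose in both, by 1.76 (adjusted p = 0.000511) and 1.10 (0.00532), and Cacna1h rose by 1.25 (6.14e-05) in C57BL/6 WT, with 0.59 (0.0829) in FVBxBALB/c WT. Cacna1g did not rise in either: it read 74.1 to 88.7 CPM at E12.5 and 60.0 to 88.4 at E15.5 in C57BL/6 WT, a change of -0.18 (SE 0.17, adjusted p = 0.362). It fell by 0.71 in FVBxBALB/c WT (SE 0.15, adjusted p = 0.000931), from 61.0 to 100 CPM at E12.5 to 40.5 to 62.6 at E15.5. Cacna1s, the pore of skeletal muscle, passed the filter on low counts through the KO libraries of E15.5 alone. It stood at 0.374 CPM or less in all C57BL/6 WT libraries and rose by 1.71 (SE 0.55, adjusted p = 0.0136). Summed skeletal muscle markers (12 genes) spanned 5.90 to 7.52 CPM at E12.5 and 5.85 to 6.99 at E15.5 in those libraries.

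The α2δ genes rose in C57BL/6 WT, where all 3 tested were called, and only Cacna2d3 was called in FVBxBALB/c WT. Cacna2d3 rose by 1.5 (adjusted p = 0.000228) and 1.13 (0.000465). Cacna2d1, a binding site of gabapentin, and Cacna2d2 changed by 0.25 and 0.62 in C57BL/6 WT (adjusted p = 0.0232 and 0.002), against 0.03 and 0.05 in FVBxBALB/c WT (0.934 and 0.858). Of the intracellular β genes, Cacnb1, Cacnb3 and Cacnb4 rose in both backgrounds, from 0.51 for Cacnb1 in FVBxBALB/c WT to 1.16 for Cacnb4 in C57BL/6 WT. Cacnb2 changed by -0.10 (adjusted p = 0.67) in C57BL/6 WT and fell by 0.50 (0.0177) in FVBxBALB/c WT. Reads of Cacnb1 and the overlapping Rpl19 (41.3 CPM on average), and of Cacna1d and Dcp1a (55.4 CPM), cannot be told apart where the genes overlap, since no strand is stated for the library kit.

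All 7 tested γ genes rose in both backgrounds. Cacng3, a TARP, read 0.203, 1.36 and 1.69 CPM in C57BL/6 WT at E12.5 and 6.96, 7.58, 7.58, 4.92 and 6.58 at E15.5. FVBxBALB/c WT gave 2.77, 1.31, 1.47 and 0.594 CPM, then 6.66, 5.39, 8.79 and 9.13. The ages were apart in both, by 2.68 (SE 0.50, adjusted p = 0.000311) and 2.34 (SE 0.43, adjusted p = 0.000264). Cacng5, a TARP of another subtype, read 1.22, 1.84 and 1.63 CPM, then 9.10, 6.90, 8.51, 8.50 and 8.69 in C57BL/6 WT. Libraries of FVBxBALB/c WT read 2.40, 2.22, 2.98 and 1.60, then 5.09, 5.49, 7.89 and 8.73. Again no E12.5 library reached an E15.5 library, and the changes were 2.42 (SE 0.20, adjusted p = 7.84e-08) and 1.56 (SE 0.24, adjusted p = 4.43e-05). Cacng2, also called stargazin, rose by 1.68 and 1.41 and Cacng8 by 1.06 and 1.00. The abundant Cacng4 and Cacng7 rose least, by 0.49 and 0.51 in C57BL/6 WT and 0.36 and 0.38 in FVBxBALB/c WT. Cacng1, a muscle γ subunit, stood at 1.59 CPM or less in all WT libraries and rose by 1.59 and 2.29. As a scarce gene it may have passed the filter on low counts through its E15.5 libraries, which limits what this rise shows.

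The age pattern held in the other genotypes of each background. In C57BL/6 libraries labelled KO, 28 of 35 channel genes rose and 3 fell (29.4% and 27% of all genes tested, 56.4% either way). In FVBxBALB/c Tg libraries, 21 of 33 rose and 4 fell (23.8% and 22.5%, 46.3% either way). Ages did not overlap for 30 of 35 channel genes in KO and 21 of 33 in Tg (54.6% and 43.2% of all genes tested). In all 4 age comparisons, 18 genes rose and 3 fell, with Scn11a and Scn4b among those that fell. The share of all genes tested that was called the same way in all 4 was not computed. These comparisons use separate libraries, but KO and WT of C57BL/6 share litters, and both genotypes of a background share 1 fit. The limit set by the filter on low counts applies to Scn4b here too. The log2 fold change of Scn11a was -1.69 in KO and -2.68 in Tg, and that of Cacna1e 2.96 and 1.78. Cacna1g fell by 0.48 (adjusted p = 0.015) in Tg and changed by -0.19 (0.339) in KO.

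Some weaker age calls rested on single libraries. In C57BL/6 WT, Scn9a lost its call without E12.5 replicate 1 or 4 or E15.5 replicate 2 or 3, Cacng1 without E12.5 replicate 1 or 3 or E15.5 replicate 5, and Cacna2d1 without E12.5 replicate 4 or E15.5 replicate 1 (adjusted p = 0.0503 to 0.137 over these genes). With the replicate number as a block, which joins different litters across the ages, Cacng1 changed by 1.28 (adjusted p = 0.121). In FVBxBALB/c WT, E12.5 replicate 4 ended the calls of Cacna1b, Cacnb1 and Cacng7, and E15.5 replicate 4 those of Cacna1b, Cacnb1 and Scn2b. Cacna1b also lost its call without E15.5 replicate 2, Cacnb1 without E12.5 replicate 2 or 3 or E15.5 replicate 2 or 3, Cacnb2 without E12.5 replicate 2 or E15.5 replicate 1 or 3, and Scn2b without E12.5 replicate 2 or E15.5 replicate 3 (adjusted p up to 0.119). In KO, the calls of Cacna1s, Cacnb1, Cacnb3, Cacng7 and Scn3a depended on single libraries (E12.5 replicate 4 for Cacna1s, 1 for Cacnb1, 1 or 3 for Cacnb3 and Scn3a, 3 for Cacng7, and E15.5 replicate 3 for Scn3a). Without the closely alike KO replicates 3 and 4 of E15.5, 29 channel genes were called in KO in place of 31 (51.4% of all genes tested in place of 56.4%). Cacnb1 (adjusted p = 0.0518), Cacnb3 (0.0517) and Scn3a (0.105) then lost their calls by edgeR. In Tg, 10 calls were lost without single libraries: Cacna1g without E12.5 replicate 4, Cacna1i without E12.5 replicate 2, Cacng1 without E15.5 replicate 2, and Scn1a without E12.5 replicate 2, 3 or 4. Cacnb1 lost its call without E12.5 replicate 2, 3 or 4 or E15.5 replicate 3, and Cacng7 without replicate 2 or 4 of either age. Cacna1b and Cacnb4 lost theirs without replicate 2, 3 or 4 of either age, Cacna1h without these or E15.5 replicate 1, and Scn2b without any 1 of the 8 libraries (adjusted p up to 0.129). No age call of a channel gene turned its direction.

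Cell type markers moved with age beside the channel genes. In C57BL/6 WT, 12 of 14 postmitotic neuron markers rose, and their sum went from 3363 to 5004 CPM at E12.5 to 10110 to 10683 at E15.5. Of the 12 apical progenitor markers 10 fell and 2 rose, with sums of 3641 to 4889 and then 2334 to 2578 CPM. Meningeal and mesenchymal markers fell in 9 of 12 cases, from 586 to 1727 CPM down to 80.1 to 211. In FVBxBALB/c WT, 12 of 14 neuron markers rose, 10 of 12 progenitor markers fell and 11 of 12 meningeal markers fell, the last from 466 to 2460 CPM down to 77.9 to 104. None of these neuron, progenitor and meningeal markers was at 0 in every library of a group. Diencephalic, midbrain and hindbrain markers fell in 3 of 9 tested cases in C57BL/6 WT (median -1.32) and 7 of 8 in FVBxBALB/c WT (median -3.11). Their 12 genes summed to 321 to 412 CPM and then 39.5 to 290 in C57BL/6 WT, and to 153 to 816 and then 45.8 to 85.6 in FVBxBALB/c WT, with 1 gene at 0 in every E12.5 library of each and 2 at E15.5 in FVBxBALB/c WT. The share of these cell types in the age changes was not tested.

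**Figure D3:**
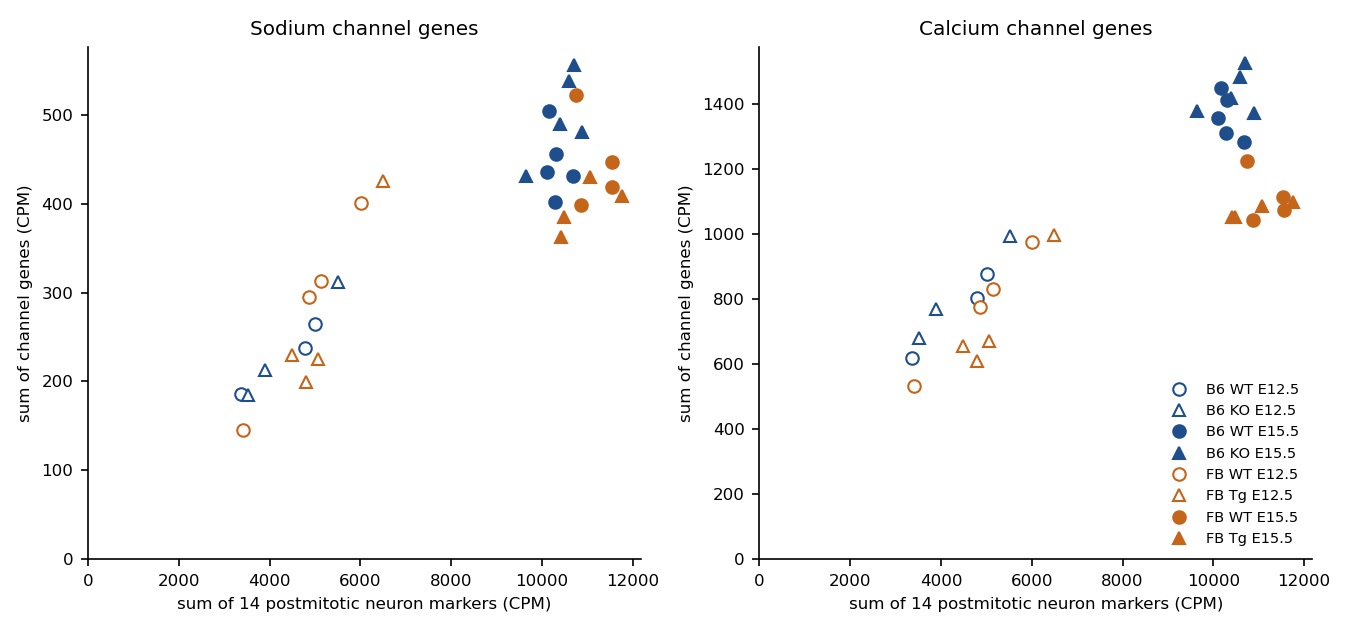
Summed CPM of the sodium channel genes (left) and calcium channel genes (right) in each of the 32 libraries against the summed CPM of 14 postmitotic neuron markers. B6 (blue) and FB (orange) stand for C57BL/6 and FVBxBALB/c, open symbols are E12.5 and filled E15.5, circles WT and triangles KO or Tg; the E15.5 libraries sit apart to the right, and among FVBxBALB/c E12.5 libraries Tg replicate 1 is highest in sodium channel RNA (426 CPM) and WT replicate 4 lowest (145 CPM).

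Within E12.5, channel RNA differed between libraries of 1 group. Summed sodium channel RNA ran from 145 to 401 CPM in FVBxBALB/c WT and from 199 to 426 in Tg, against 398 to 522 and 363 to 431 at E15.5. WT replicate 4 had the lowest sum and the lowest neuron marker sum (3409 CPM) of its group, and Tg replicate 1 the highest of both (6488 CPM for the markers). Both libraries bear on the Tg comparison at this age. Summed calcium channel RNA rose with age from 766 ± 133 to 1362 ± 68.6 CPM in C57BL/6 WT and from 779 ± 185 to 1114 ± 79.8 in FVBxBALB/c WT.

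The shares of single pores are given as a description. Taken as a share of the summed RPKM of the 10 sodium α genes, Scn3a held 44.5% ± 4.69 at E12.5 and 42.5% ± 1.33 at E15.5 in C57BL/6 WT. Scn2a went from 8.93% ± 1.26 to 22.7% ± 0.912. Of the calcium α1 RPKM, Cacna1g went from 34.8% ± 7.96 to 14.1% ± 1.67. The same shares in FVBxBALB/c WT were 11% and 24.1% for Scn2a and 33.7% and 13.9% for Cacna1g. The E12.5 and E15.5 libraries did not overlap for Scn2a and Cacna1g in either background. Of 52 exact 2-sided permutation tests over 26 genes that held at least 5% of their class in a group, none passed after adjustment. The smallest p these group sizes allow is 0.0357 in C57BL/6 and 0.0286 in FVBxBALB/c, and the smallest adjusted p was 0.0663.

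**Figure D4:**
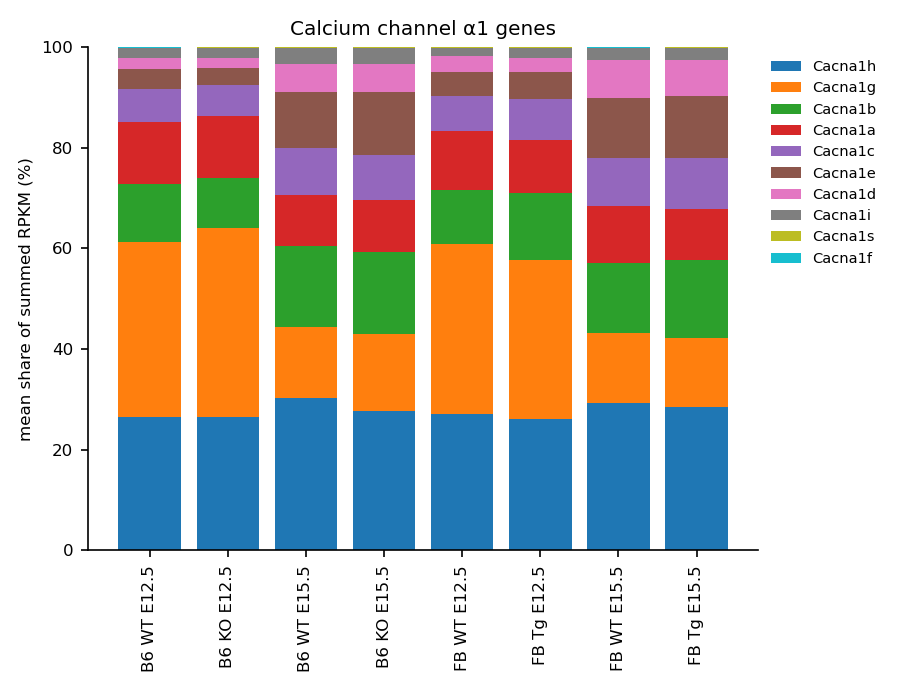
Mean share of the summed RPKM of the calcium channel α1 genes in each of the 8 groups, stacked to 100%. B6 and FB stand for C57BL/6 and FVBxBALB/c; Cacna1g (orange) is narrower at E15.5 in all genotypes, at 14.1% in C57BL/6 WT against 34.8% at E12.5.

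Genes of related channels and genes whose products act on the sodium or calcium channels were taken as a further list of 31, called partner genes here. Of these, 30 were in the files and 29 tested. In C57BL/6 WT, 20 rose and 2 fell with age, with a median of 1.01, and in FVBxBALB/c WT 19 rose and 2 fell, with a median of 0.69. Cntn1, a cell adhesion partner of sodium channels, rose by 2.24 (SE 0.14, adjusted p = 5.58e-09) in C57BL/6 WT. Fgf12 and Fgf13, intracellular proteins that bind sodium channel tails, rose by 2.15 (adjusted p = 5.58e-08) and 1.05 (6.14e-08). Nedd4l, a ubiquitin ligase that removes channels from the membrane, rose by 1.18 (adjusted p = 3.04e-07). The 2 that fell, Cachd1 and the endolysosomal channel gene Tpcn2, were named after their values were seen, at -0.74 (adjusted p = 0.00133) and -0.99 (0.000162).

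The comparison of KO with WT asks which genes depend on Kat6b. No channel gene passed at either age, beside 0.0062% of all genes tested at E12.5 and 0% at E15.5. At E12.5, 0 of 35 channel genes had an unadjusted p under 0.05, against 5.22% of all genes tested, and DESeq2 called none. The smallest p belonged to Cacna2d1, with 78.4, 92.2 and 108 CPM in KO and 108, 105 and 103 in WT. These values overlapped, and the difference was -0.19 on the log2 scale (SE 0.10, adjusted p = 0.881 by edgeR). Cacna1s followed at 1.08 (SE 0.62, adjusted p = 0.881), at levels of at most 0.340 CPM, where skeletal muscle markers summed to 7.84 to 26.7 CPM in KO and 5.90 to 7.52 in WT (their part was not tested), and Cacna1g at 0.26 (SE 0.19, adjusted p = 0.900). Cacnb2 was the 1 channel gene whose KO libraries (8.58, 8.31 and 7.16 CPM) and WT libraries (9.85, 9.20 and 8.80) did not overlap, as 7% of all genes tested did not. Log2 fold changes were above 0 in 23 of 35 genes with a median of 0.07, against 46.9% of all genes tested and a median of -0.01. That count came to 9 without KO replicate 4 and to 11 without WT replicate 1, where the median was -0.15 and -0.09. It came to 28 without KO replicate 1 and to 29 without WT replicate 3, where the median was 0.25 and 0.22.

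At E15.5, 2 of 35 channel genes had an unadjusted p under 0.05, against 2.83% of all genes tested, and DESeq2 again called none. Cacna1s read 0.560, 0.456, 0.694, 0.455 and 0.629 CPM in KO and 0.357, 0.374, 0.344, 0.128 and 0.313 in WT. It was the 1 channel gene whose KO and WT libraries did not overlap (0.831% of all genes tested did not), at 0.86 on the log2 scale (SE 0.39, adjusted p = 1). Cacna1s passed the filter on low counts through these KO libraries alone, the group where it is high, so its lack of overlap is not read further. Skeletal muscle markers summed to 5.66 to 7.49 CPM in KO and 5.85 to 6.99 in WT. Cacna1e read 104, 105, 110, 93.8 and 102 CPM in KO against 97, 91.7, 60.8, 88.9 and 81.1 in WT. WT replicate 1 reached into the KO range, and the difference was 0.30 (SE 0.14, adjusted p = 1). Scn9a stood at 0.56 (SE 0.27, adjusted p = 1), with 19.6 and 19.0 CPM in KO replicates 3 and 4 and 10.9 to 13.1 in the other 3. Without these replicates its difference was 0.22.

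Small differences above 0 were common at E15.5: 32 of 35 channel genes were higher in the libraries labelled KO, with a median of 0.13, against 53% of all genes tested and a median of 0.01. The count was 22 of 35 and the median 0.05 without KO replicates 3 and 4, and 28 with these 2 summed into 1. It was 27 without replicate 3 alone and 31 without replicate 4 alone. Of all libraries, KO replicate 3 had the largest share of counts in rows without a gene symbol (2.00%) and the lowest TMM factor (0.802). In replicate 4 these were 0.37% and 1.03. The part of this in the channel differences was not tested. Cacna1g went from 0.26 to 0.01 without replicates 3 and 4. Both replicates had the highest sums of meningeal markers in their group, 322 and 312 CPM, and of diencephalic, midbrain and hindbrain markers, 332 and 323, where the other KO libraries lay at 71.2 to 110 and 43.5 to 50.4. The part of these cells in the channel differences was not tested. No marker gene of the 11 cell type lists was called at this age.

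The change of the KO effect between the ages was tested as an interaction, and no channel gene passed (0% of all genes tested). Cacna2d1 had the smallest p, with a difference of 0.32 (SE 0.12, adjusted p = 1.00), followed by Cacna1e at 0.35 (SE 0.23) and Cacng5 at 0.38 (SE 0.27). Among the partner genes, Stac, an adaptor that binds L-type calcium channels, was the 1 gene of the list called at E12.5 and was named after its value was seen. It stood at 1.98 ± 0.322 CPM in KO and 5.08 ± 0.0161 in WT (n = 3 each), a difference of -1.37 on the log2 scale (SE 0.18, adjusted p = 0.0102). Its E15.5 levels were 4.88 ± 0.507 and 4.75 ± 0.674 CPM. With the replicate number as a block the adjusted p was 0.150, and it was 0.0617 with the litter as a block, in which replicates 3 and 4 of both genotypes form 1 litter by the labels. The call was also lost without KO replicate 3 (0.155) or 4 (0.138), without WT replicate 3 (0.0636) or 4 (0.0611), and in a fit of these 6 libraries alone (1.00).

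**Figure D5:**
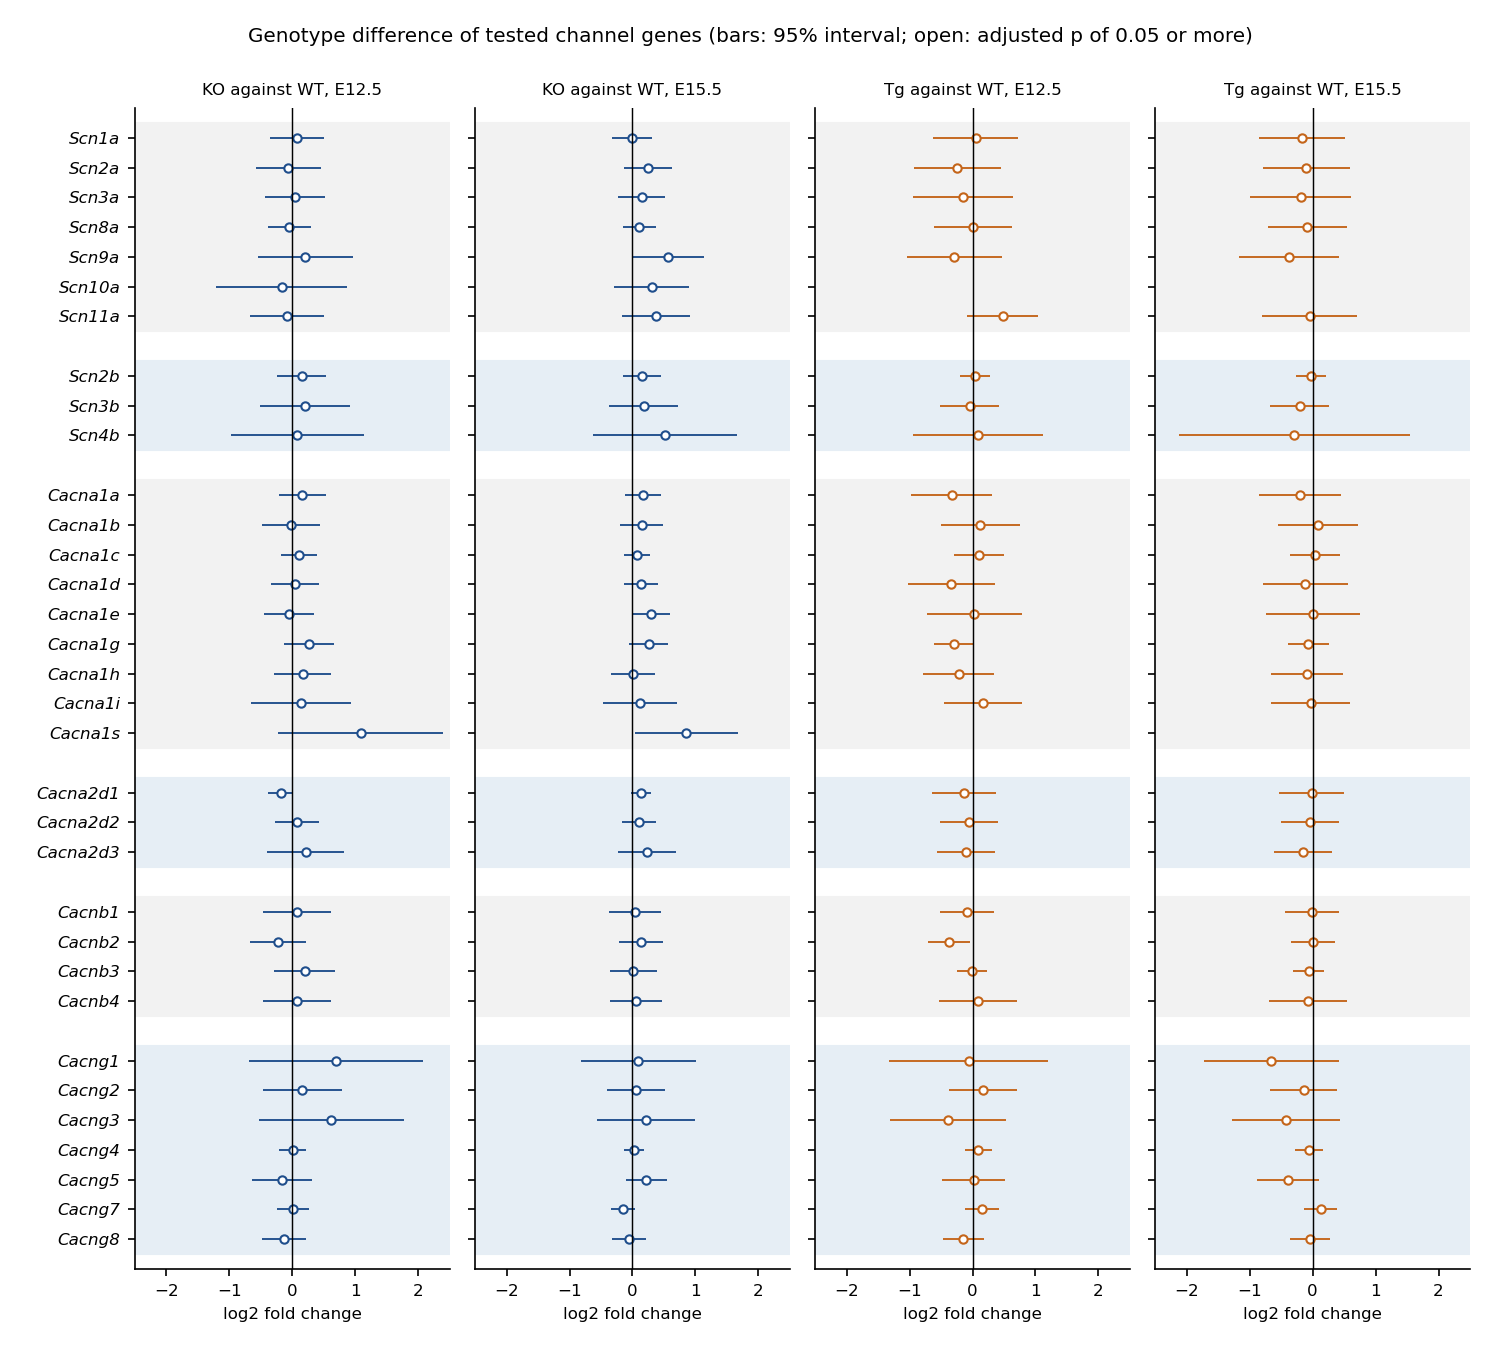
Log2 fold change of KO against WT in C57BL/6 (blue) and of Tg against WT in FVBxBALB/c (orange) at each age, with its 95% interval, for tested channel genes in blocks by subunit class. All points are open, since no channel gene had an adjusted p below 0.05.

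The comparison of Tg with WT asks what raised Kat6b does. No channel gene passed at either age, beside 0.0129% of all genes tested at both. At E12.5, 1 of 33 channel genes had an unadjusted p under 0.05, against 6.68% of all genes tested. This was Cacnb2, with 9.97, 7.68, 9.04 and 6.44 CPM in Tg and 10.2, 12, 11.6 and 9.44 in WT. Tg replicate 1 lay within the WT range, and the difference was -0.38 (SE 0.16, adjusted p = 0.724). Cacna1g stood at -0.29 (SE 0.15, adjusted p = 0.770) and Scn11a at 0.48 (SE 0.27, adjusted p = 0.774). No channel gene had Tg and WT libraries that did not overlap (2.8% of all genes tested). Changes above 0 numbered 15 of 33 with a median of -0.01, against 47.4% of all genes tested and a median of -0.01. The count was 7 without Tg replicate 1 (median -0.28) or without WT replicate 4 (median -0.20), the FVBxBALB/c libraries of this age with the most and the least sodium channel RNA, and 23 without WT replicate 1.

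At E15.5, 0 of 33 channel genes had an unadjusted p under 0.05 in Tg against WT, where 2.22% of all genes tested did, and DESeq2 called none. Cacng5 had the smallest p, with 3.71, 4.69, 6.64 and 5.51 CPM in Tg and 5.09, 5.49, 7.89 and 8.73 in WT. The genotypes overlapped, and the difference was -0.39 (SE 0.23, adjusted p = 1). Cacng1 at -0.65 (SE 0.51) and Cacng3 at -0.43 (SE 0.41) followed. No channel gene was without overlap between the genotypes (2.52% of all genes tested). Changes below 0 numbered 27 of 33, with a median of -0.08, where 51% of all genes tested were above 0. Those above 0 rose from 6 to 15 without WT replicate 2, where the median was -0.01. The Tg effect did not differ between the ages for any channel gene by the interaction test (0% of all genes tested), with Cacnb2 first at 0.38 (SE 0.23, adjusted p = 1.00).

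The intervals give the size of genotype differences that these data leave possible. For Scn3a, the leading sodium pore, the 95% interval of the log2 fold change was -0.22 to 0.52 for KO and -0.99 to 0.61 for Tg at E15.5. For Cacng4 it was narrower, -0.14 to 0.19 and -0.27 to 0.17. Scarce genes had wide intervals, such as 0.04 to 1.67 for Cacna1s in KO.

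WT libraries of both backgrounds were compared in 1 fit of all 32 libraries, where background and sequencing batch cannot be told apart. At E12.5, 3 of 35 channel genes were lower in FVBxBALB/c and none higher (7.19% and 5.59% of all genes tested, 12.8% either way): Cacng8 at -0.75 (SE 0.16, adjusted p = 0.00225), Cacng7 at -0.52 (SE 0.13, adjusted p = 0.00626) and Cacng4 at -0.39 (SE 0.10, adjusted p = 0.0133). At E15.5, 7 were lower and 1 higher (11.3% and 13.9%, 25.3% either way). The same 3 γ genes were among them, at -0.79, -0.63 and -0.49, with Cacng8 at 12.4 to 18.3 CPM in FVBxBALB/c and 24.3 to 32.9 in C57BL/6. Cacng7 and Cacng8 lie side by side on chromosome 7, 25820 bases apart. Cacng1, the 1 gene that was higher, stood at 1.32 (SE 0.47, adjusted p = 0.0377), Scn10a at -1.08 (SE 0.38, adjusted p = 0.0341) and Cacna1i at -0.88 (SE 0.31, adjusted p = 0.0342), and the remaining lower genes were Cacna2d2 and Cacna1g. Cacng1 and Scn10a are scarce and may have passed the filter on low counts through the group where they were high. Scn10a failed it in the fit of FVBxBALB/c libraries. Their background calls, which enter the counts above, may therefore not be independent of that filter.

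These background calls were sensitive to single libraries. The E12.5 count was 1 without C57BL/6 replicate 3 or 4 (7.37% and 5.16% of all genes tested) and 10 without FVBxBALB/c replicate 4 (20.4%). The E15.5 count was 4 without C57BL/6 replicate 2 (22.8% of all genes tested) and 5 without replicate 5 (21.3%). It was 3 without FVBxBALB/c replicate 1 (17.8%) and 4 without replicate 4 (22.4%). No channel gene passed the test of a different age change between the backgrounds (0 of 35, beside 0.0305% of all genes tested, 0.0183% higher and 0.0122% lower). Still, 30 of 35 changes were smaller or more negative in FVBxBALB/c, with a median difference of -0.34. Of all genes tested, 50.5% had a difference above 0, with a median of 0.003. The smallest p was that of Cacng5, at -0.84 (SE 0.31, adjusted p = 0.639), and 3 channel genes had an unadjusted p under 0.05 (6.62% of all genes tested).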

How the data were processed

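RNA was sequenced from 32 embryos in 8 groups. The deposited files hold raw counts per gene, which the authors made with featureCounts on mm10, per the submitters' processing notes; sources used here do not give the aligner, the annotation or the versions. Every file has 27179 rows, of which 848 carry no gene symbol; they held 0.305% to 2.00% of the counts and stayed out of library sizes and tests. Groups came from the labels. Counts were tested in R 4.3.3 with edgeR 4.0.16 (filterByExpr with a minimum count of 10 and a minimum total of 15, TMM scaling, robust quasi-likelihood F test), in 1 fit of 16 libraries per background and 1 fit of all 32 for comparisons of backgrounds. P-values were adjusted over all genes tested by Benjamini-Hochberg, and a call means an adjusted p below 0.05. CPM used TMM over all 32 libraries, and RPKM the gene lengths in the files. Groups of 3 to 5 embryos limit the precision, and fold changes of genes under 1 CPM rest on few reads.

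The channel genes and the gene lists were chosen with earlier results of these data known. Some channel genes enter the counts and sums but are not reported here by name. Named genes were, per genotype comparison, those called or else the 3 with the smallest p; per age comparison, those called, with values per library for the 4 largest rises and up to 4 largest falls in C57BL/6 WT at a mean of at least 1 CPM; per background comparison, the called genes with the 3 largest differences; and 4 partner genes with the smallest p. Shares of summed RPKM and counts above 0 were added after seeing the data. Alternatives were DESeq2 1.42.0, RLE scaling, no filter, 2 groups per fit, a replicate or litter block and leaving out each library. Within 1 age of C57BL/6, KO and WT libraries of the same number share a litter, per the labels, and replicates 3 and 4 of E12.5 share 1 litter; across the ages the same number means different litters, so in age comparisons the replicate block joins different litters. Same-numbered libraries correlated in their deviations at -0.426 to 0.423 at E12.5 and -0.158 to 0.405 at E15.5. FVBxBALB/c labels give no litter (-0.185 to 0.638).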

Additional observations from a re-analysis of the deposited data

Results flagged for a closer look

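In 17 of 222 groups of 4 or 5 libraries, over 35 channel genes and 2 summed levels, 1 library stood far from the others of its group; chance alone flags about 1 in 20 groups. Tg replicate 1 at E12.5 was high in 6 of them. It read 37.7 CPM for Cacna1e (others 13.4 to 14), 14.1 for Cacna1d (others 4.29 to 5.81), 39.1 for Cacnb4 (others 17.9 to 20.2) and 16.1 for Scn1a (others 6.26 to 7.11). Its summed sodium channel level was 426 CPM (others 199 to 230), and its summed calcium channel level 996 (others 610 to 671). FVBxBALB/c WT replicate 4 at E12.5 was low for Cacna1e at 8.79 CPM (others 22.3 to 24.8) and for Cacna1i at 2.28 (others 5.32 to 5.91).

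At E15.5 the distances were smaller in most cases. C57BL/6 WT replicate 2 was high for Cacna1g at 88.4 CPM (others 60.0 to 68.2) and low for Cacng5 at 6.90 (others 8.50 to 9.10). C57BL/6 WT replicate 1 was high for Scn4b at 0.624 CPM (others 0.148 to 0.261) and low for Scn11a at 0.268 (others 0.738 to 0.895). C57BL/6 WT replicate 4 was low for Cacna1s at 0.128 CPM (others 0.313 to 0.374), and KO replicate 2 for Cacna1d at 31.5 (others 33.6 to 34.1). FVBxBALB/c WT replicate 2 was high for Cacnb2 at 9.5 CPM (others 6.85 to 7.24) and for Scn9a at 17.5 (others 7.54 to 9.20). Tg replicate 1 was high for Cacna1g at 51.4 CPM, where the other 3 libraries all read 47.3.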

How the results depend on the processing

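No call of a channel gene turned its direction under any alternative run. The number of channel genes called with age stayed between 29 and 33 in C57BL/6 WT, 28 and 32 in KO, 23 and 27 in FVBxBALB/c WT and 18 and 27 in Tg. In the same order, 41.8% to 56.8%, 42% to 57.7%, 35.4% to 50.4% and 32.3% to 47.6% of all genes tested were called. The counts of 0 in the genotype comparisons and interactions were 0 under DESeq2 and the replicate block too. The comparison of backgrounds was less steady. At E12.5, 3 channel genes were called, 0 with the replicate block, and 1 to 10 with 1 library left out. At E15.5, 8 were called, 5 with the replicate block, and 3 to 8 with 1 library left out. Of all genes tested, 12.8% were called at E12.5, 4.04% with the block and 5.16% to 20.4% with 1 library left out. The same shares at E15.5 were 25.3%, 9.54% and 17.8% to 24.7%. Replicate numbers do not pair animals across backgrounds, and the cause was not tested. In FVBxBALB/c the labels give no pairing of the genotypes, and every channel gene called with age there kept its call with the block except Scn2b in Tg (adjusted p = 0.0614). Of the other C57BL/6 calls among channel genes, the block changed Cacng1 in WT alone. In FVBxBALB/c WT, Cacnb1 lost its age call with RLE scaling (adjusted p = 0.0517 by edgeR), without the filter (0.0670) and with 2 groups per fit (0.0680). Cacna1b lost it without the filter (0.0510) and Scn2b with 2 groups per fit (0.0718). In Tg, Cacna1b, Cacna1h, Cacnb4 and Scn2b lost theirs without the filter, Cacna1h and Scn2b with 2 groups per fit, and Scn2b with RLE scaling. In KO, Scn3a lost it with 2 groups per fit (0.0568). Genes below 1 CPM, such as Cacna1s, Scn10a and Cacng1, had the widest intervals, and small genotype differences in them were not detectable at this depth.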
